A study of Mus musculus with 3 samples.

Results

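Ada, Nt5e, Slc28a2, Enpp3, Xdh and Pnp are 6 genes of purine and nucleotide breakdown, listed by name from the 51912 genes of the features list with their levels in these libraries already known, and grouped as genes of the villus tip. Their levels are therefore given as a description, with no test. They were measured by single-cell RNA sequencing of intestinal epithelium from mice, in 2 Arid3a cKO libraries and 1 WT library. The design names 2 replicates for each condition, and a second WT library was not analysed here. Arid3a cKO mice were Arid3a fl/fl and carried VillinCreERT2, a tamoxifen-activated Cre recombinase driven by the Villin promoter and so active throughout the intestinal epithelium, whereas the WT control carried VillinCreERT2 alone. Mice of both genotypes were given tamoxifen at 8 to 10 weeks of age and were harvested 1 month after the first injection. Per the study's methods, villi of the proximal jejunum were scraped off before crypts were collected, and living cells positive for Epcam and negative for CD45 and CD31 were sorted.

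Purine nucleotides reach the enterocyte surface from the diet, from microbes and from shed cells. Enzymes on the outer membrane strip them to nucleosides, concentrative transporters carry the nucleosides into the cell with sodium, and enzymes inside deaminate and cleave them and oxidise the free bases to urate. In the mouse villus, a programme that includes Ada, Nt5e and Slc28a2 is known to be switched on in the last enterocytes before shedding at the tip. Enpp3 is an ectonucleotide pyrophosphatase, which cuts extracellular nucleotides to monophosphates. Nt5e, also called CD73, turns extracellular AMP into adenosine. Slc28a2 is the purine-selective sodium-coupled nucleoside transporter. Ada deaminates adenosine to inosine, Pnp splits inosine and guanosine into base and sugar phosphate, and Xdh oxidises hypoxanthine and xanthine to urate.

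All 6 genes are protein-coding in the GENCODE M21 annotation of GRCm38. Ada lies on chromosome 2 at 163726584 to 163750239 on the minus strand, and Slc28a2 on the same chromosome at 122426477 to 122461137 on the plus strand. Enpp3 lies on chromosome 10 at 24772406 to 24842823 and Xdh on chromosome 17 at 73883895 to 73950196, both on the minus strand. Nt5e lies on chromosome 9 at 88327197 to 88372092 and Pnp on chromosome 14 at 50944517 to 50963136, both on the plus strand. Pnp overlaps a second gene for the same activity, Pnp2, on the same strand, and the first annotated transcripts of the pair are identical at 89.7% of 1310 aligned positions, so that reads could be split between them. Of the last 300 bases of Pnp, near which a 3′ kit reads, only 83 positions aligned to Pnp2, with 62.7% identical. Gm14085, the copy next to Slc28a2, is identical to it at 95.9% of 3750 aligned positions, and at 96.7% of 301 positions over the last 300 bases. It had 0 UMIs in every library, which allows up to 0.0423, 0.0516 and 0.0479 UMIs in each 1000000 (CPM) at a limit of 3 counts, but reads of so similar a pair could be lost or split, so the Slc28a2 counts are uncertain.

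The windows just upstream of Ada and Slc28a2 are shown because UMIs of these genes proved to lie in the same few barcodes. Each window runs from 250 to 51 bases before the RefSeq start on GRCm38.p6, at chr2:163750290-163750489 on the minus strand for Ada and at chr2:122426185-122426384 on the plus strand for Slc28a2. Capitals mark matches to 4 motifs searched on both strands, the GATA site AGATAA, the GC box GGGCGG, the TATA box TATAAA and the HNF1 half-site GTTAAT.
Ada: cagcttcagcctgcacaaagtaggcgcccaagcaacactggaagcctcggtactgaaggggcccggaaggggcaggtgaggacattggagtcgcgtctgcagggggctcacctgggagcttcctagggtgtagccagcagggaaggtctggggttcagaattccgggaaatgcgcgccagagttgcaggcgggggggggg
Slc28a2: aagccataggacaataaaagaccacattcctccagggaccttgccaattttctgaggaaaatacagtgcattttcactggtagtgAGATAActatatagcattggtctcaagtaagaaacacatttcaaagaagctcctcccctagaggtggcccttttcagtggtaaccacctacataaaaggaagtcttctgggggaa
The Ada window was 64.0% G and C and the Slc28a2 window 42.5%, against a median of 51.5% over 32851 windows. The Ada window held none of the 4 motifs. The Slc28a2 window held the GATA site once, overlapping no other motif, and 8.42% of all windows hold it. The GC box, present in 24.6% of windows, was found at Nt5e and Pnp, and the TATA box, present in 9.14%, at Enpp3. The Nt5e window, at chr9:88327359-88327558, lay inside the GENCODE gene and overlapped an exon of Nt5e. The Enpp3 window, at chr10:24836246-24836445, also lay inside its GENCODE gene, so neither window is upstream of the annotated gene. The HNF1 half-site, present in 5.33%, was found at none of the 5 members that had a RefSeq window.

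The libraries held 6845 to 11816 barcodes, of which 1550 to 2134 per library, 5594 of 25554 in all (21.9%), had at least 1000 genes and at most 15% of UMIs from mitochondrial genes. Median depth was 29895 to 35764 UMIs per kept cell, and libraries shared 11 to 18 barcodes in pairs, of which at most 2 were kept in both. Arid3a itself had 0.592 and 0.894 CPM in the cKO libraries and 2.57 in WT, and where 3 values stand together the first is for Arid3a cKO 1, the next for Arid3a cKO 2 and the last for WT. The kept cells formed 13 clusters, of which 4 were enterocyte-like, and 3 clusters had no name, among them cluster 2 (739 cells, led by Ccl20, Krt19 and Edn2). Intervals are exact 95% intervals and cover counting error only. Summed levels of T cell, B cell, myeloid and stromal markers in enterocyte-like cells were each below 1 CPM.

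The 6 genes did not share one pattern across epithelial cells. Xdh and Enpp3 were highest in differentiated cells, Pnp was high in every absorptive and proliferating class, Ada and Slc28a2 were higher in intestinal stem cell (ISC)-like and transit-amplifying (TA)-like than in enterocyte-like cells once single cells with very many UMIs were set aside, and Nt5e was found mainly in enteroendocrine-like cells. The description below follows the pathway from the cell surface inward.

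The levels of Enpp3 in enterocyte-like cells were 19.1 CPM (17.5 to 20.9), 35.7 (33.2 to 38.4) and 19.6 (17.8 to 21.6). Arid3a cKO 2 stood above the other 2 libraries, which overlapped. The level was higher in goblet-like cells, the mucus-secreting cells, at 92.0 CPM (81.0 to 104), 63.7 (55.8 to 72.4) and 84.8 (75.8 to 94.5). There Arid3a cKO 2 was the lowest of the 3 libraries. A UMI of Enpp3 was seen in 62.1%, 63.0% and 70.1% of goblet-like cells. Paneth-like cells, whose median depth was 4.16 times that of their libraries, had 2, 0 and 4 UMIs of it in all, the 0 allowing up to 1.18 CPM. Tuft-like cells, the chemosensory cells, had 48.8, 23.2 and 25.7 CPM. ISC-like cells had 1.56, 4.11 and 3.41 CPM.

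Among enterocyte-like clusters, Enpp3 was found mainly in 3 of 4. Cluster 5, led by Sult6b2, Tmprss15 and Alpi, had 33.1, 59.0 and 35.7 CPM, and cluster 1, led by Dnase1, Cubn and Lct, had 27.2, 46.6 and 27.8 CPM. In both, Arid3a cKO 2 was highest and the other libraries were close to each other. Cluster 3, led by Ms4a18, had 2.14, 1.53 and 1.57 CPM, a level like that of ISC-like cells. The small interferon-rich cluster 11 had 43.6, 70.1 and 26.9 CPM, with wide intervals from 59 cells. After enterocyte-like cells had been thinned to 24500 UMIs each, a UMI of Enpp3 was seen in 15.2% (12.6 to 18.1), 24.7% (20.9 to 28.8) and 15.3% (12.4 to 18.6), so that the higher level in Arid3a cKO 2 was also a higher share of cells. No single cell held more than 4.77% of the Enpp3 UMIs of a library's enterocyte-like cells.

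Nt5e was the member with the narrowest distribution. In enteroendocrine-like cells, the hormone-secreting cells, it had 57.2 CPM (42.2 to 75.9), 117 (94.9 to 143) and 126 (108 to 145). Arid3a cKO 1 was the lowest, and the other 2 libraries overlapped. UMIs were found in 18 of 45 cells (40%), 22 of 43 (51.2%) and 40 of 86 (46.5%), against 0.719%, 1.17% and 0.858% of enterocyte-like cells. Within the class, Nt5e lay mostly in a subcluster led by Afp, Chga, Reg4 and Tph1, where it had 138, 207 and 288 CPM. The other subcluster, led by Cck, Gip and Ghrl, had 20.8, 48.1 and 41.1 CPM. Tph1 makes serotonin in enterochromaffin cells, whereas Cck, Gip and Ghrl encode peptide hormones.

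Outside these cells Nt5e was close to the counting limit. Enterocyte-like cells had 6, 20 and 6 UMIs in all, which is 0.225, 0.967 and 0.281 CPM, and 13 of the 20 UMIs in Arid3a cKO 2 came from 1 cell. The low level therefore held in all libraries, and the excess in Arid3a cKO 2 rested on that cell. In WT, 0 of 192 TA-like cells thinned to 33000 UMIs had an Nt5e UMI, which at 3 counts allows a share of cells with a UMI, not of cells expressing the gene, of up to 1.56%.

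Slc28a2 was scarce, with 80, 193 and 126 UMIs over all kept cells, or 1.13, 3.32 and 2.01 CPM. Its UMIs lay in ISC-like cells at 2.28, 6.26 and 4.01 CPM and in TA-like cells at 2.49, 3.84 and 2.72 CPM. Thinned to 22000 UMIs, 3.75%, 6.48% and 5.76% of ISC-like cells had a UMI, against 0 of 26, 0 of 14 and 0 of 24 Paneth-like cells thinned to 39000 UMIs, too few cells to tell the shares from background. Enterocyte-like cells had less, at 0.225, 2.03 and 0.702 CPM. In Arid3a cKO 2, 30 of the 42 UMIs in enterocyte-like cells came from 1 cell, and without the highest cell of each library the levels were 0.150, 0.582 and 0.656 CPM. Arid3a cKO 2 was then close to WT, and Arid3a cKO 1 stayed the lowest.

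Over all kept cells Ada had 6.57 CPM (5.99 to 7.20), 25.7 (24.4 to 27.1) and 12.4 (11.5 to 13.3). These intervals do not overlap, but they do not cover the way the UMIs were spread over cells. A single cell held 718 of the 1497 Ada UMIs of Arid3a cKO 2 and a single cell held 221 of the 777 in WT, whereas the highest cell of Arid3a cKO 1 held 16 of 466. Without the highest cell of each library the levels were 6.35, 13.4 and 8.87 CPM. Arid3a cKO 2 was still the highest and Arid3a cKO 1 the lowest.

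In ISC-like cells Ada was spread over many cells, at 11.7, 15.1 and 17.0 CPM. A UMI was seen in 20.7% (16.6 to 25.4), 24.7% (19.4 to 30.6) and 30.9% (25.6 to 36.7) of ISC-like cells thinned to 22000 UMIs, and the intervals of Arid3a cKO 1 and WT did not overlap. TA-like cells had 12.8, 31.3 and 15.4 CPM, and 12.5, 13.9 and 15.1 CPM without the highest cell of each library, which in Arid3a cKO 2 held 186 of 334 UMIs. After thinning to 33000 UMIs, 31.9%, 36.9% and 34.4% of TA-like cells had an Ada UMI, so the libraries were close to each other in the number of cells with Ada.

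In enterocyte-like cells Ada had 2.82 CPM (2.22 to 3.53), 41.0 (38.3 to 43.9) and 4.02 (3.22 to 4.97). The level of Arid3a cKO 2 came from the cell with 718 UMIs, which was 84.7% of that library's 848, and without the highest cell of each library the levels were 2.44, 6.30 and 3.56 CPM. After thinning to 24500 UMIs, a UMI of Ada was seen in 40 of 689 cells (5.81%, 4.18 to 7.82), 36 of 482 (7.47%, 5.29 to 10.2) and 41 of 536 (7.65%, 5.54 to 10.2). The 3 intervals overlapped. Unthinned, the shares were 7.07%, 12.6% and 8.73%. Of Paneth-like cells thinned to 39000 UMIs, 1 of 26, 0 of 14 and 2 of 24 had an Ada UMI, too few cells to tell the enterocyte-like shares from background. Goblet-like cells also rested on few cells, with 10.2, 18.0 and 6.80 CPM, or 4.39, 8.78 and 5.37 CPM without the highest cell of each library. Tuft-like cells had 14, 6 and 6 Ada UMIs in all, or 19.5, 10.7 and 7.35 CPM.

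Pnp was found in every class. Enterocyte-like cells had 368, 417 and 378 CPM, cluster 2 had 276, 315 and 263 CPM, and ISC-like cells had 196, 202 and 178 CPM. The secretory classes had less, with 111, 108 and 101 CPM in goblet-like cells and 27.8, 13.4 and 21.1 CPM in Paneth-like cells. The order of these classes was the same in all 3 libraries. The range over the classes was wider than that between libraries within any of them. In ratio, the libraries differed most in Paneth-like cells, and more there than some neighbouring classes did. Pnp2 was lower than Pnp in these sums, with 239.8, 280.4 and 246 CPM in enterocyte-like cells and 60.3, 64.0 and 57.5 CPM in ISC-like cells.

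In enterocyte-like cells Xdh had 297 CPM (290.3 to 303), 314 (306 to 322) and 326 (319 to 334), with UMIs in 97.7%, 99.0% and 98.3% of cells. It was highest in cluster 5 at 474, 437 and 470 CPM and in cluster 11 at 403, 448 and 476 CPM, followed by cluster 1 at 334, 330.2 and 357 CPM. Cluster 3 had 161, 192 and 214 CPM and cluster 2 had 49.6, 45.2 and 59.4 CPM. In cluster 3 both cKO libraries lay below WT, whereas in cluster 5 Arid3a cKO 1 did not. ISC-like cells had 19.1 CPM (16.8 to 21.5), 23.9 (21 to 27.1) and 32.5 (29.3 to 35.9), again with WT the highest. After thinning, 25.4%, 22.7% and 35.6% of ISC-like cells had an Xdh UMI. Paneth-like cells, thinned to the greater depth of 39000 UMIs, had one in 11.5%, 14.3% and 20.8% of 26, 14 and 24 cells, and in 20.6%, 35.3% and 44.8% unthinned. The thinned shares were higher in ISC-like than in Paneth-like cells in each library, but rested on few Paneth-like cells and on unlike depths. Unthinned, 29.5%, 28.5% and 40.2% of ISC-like cells had an Xdh UMI, below the Paneth-like share in Arid3a cKO 2 and WT.

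**Figure D1:**
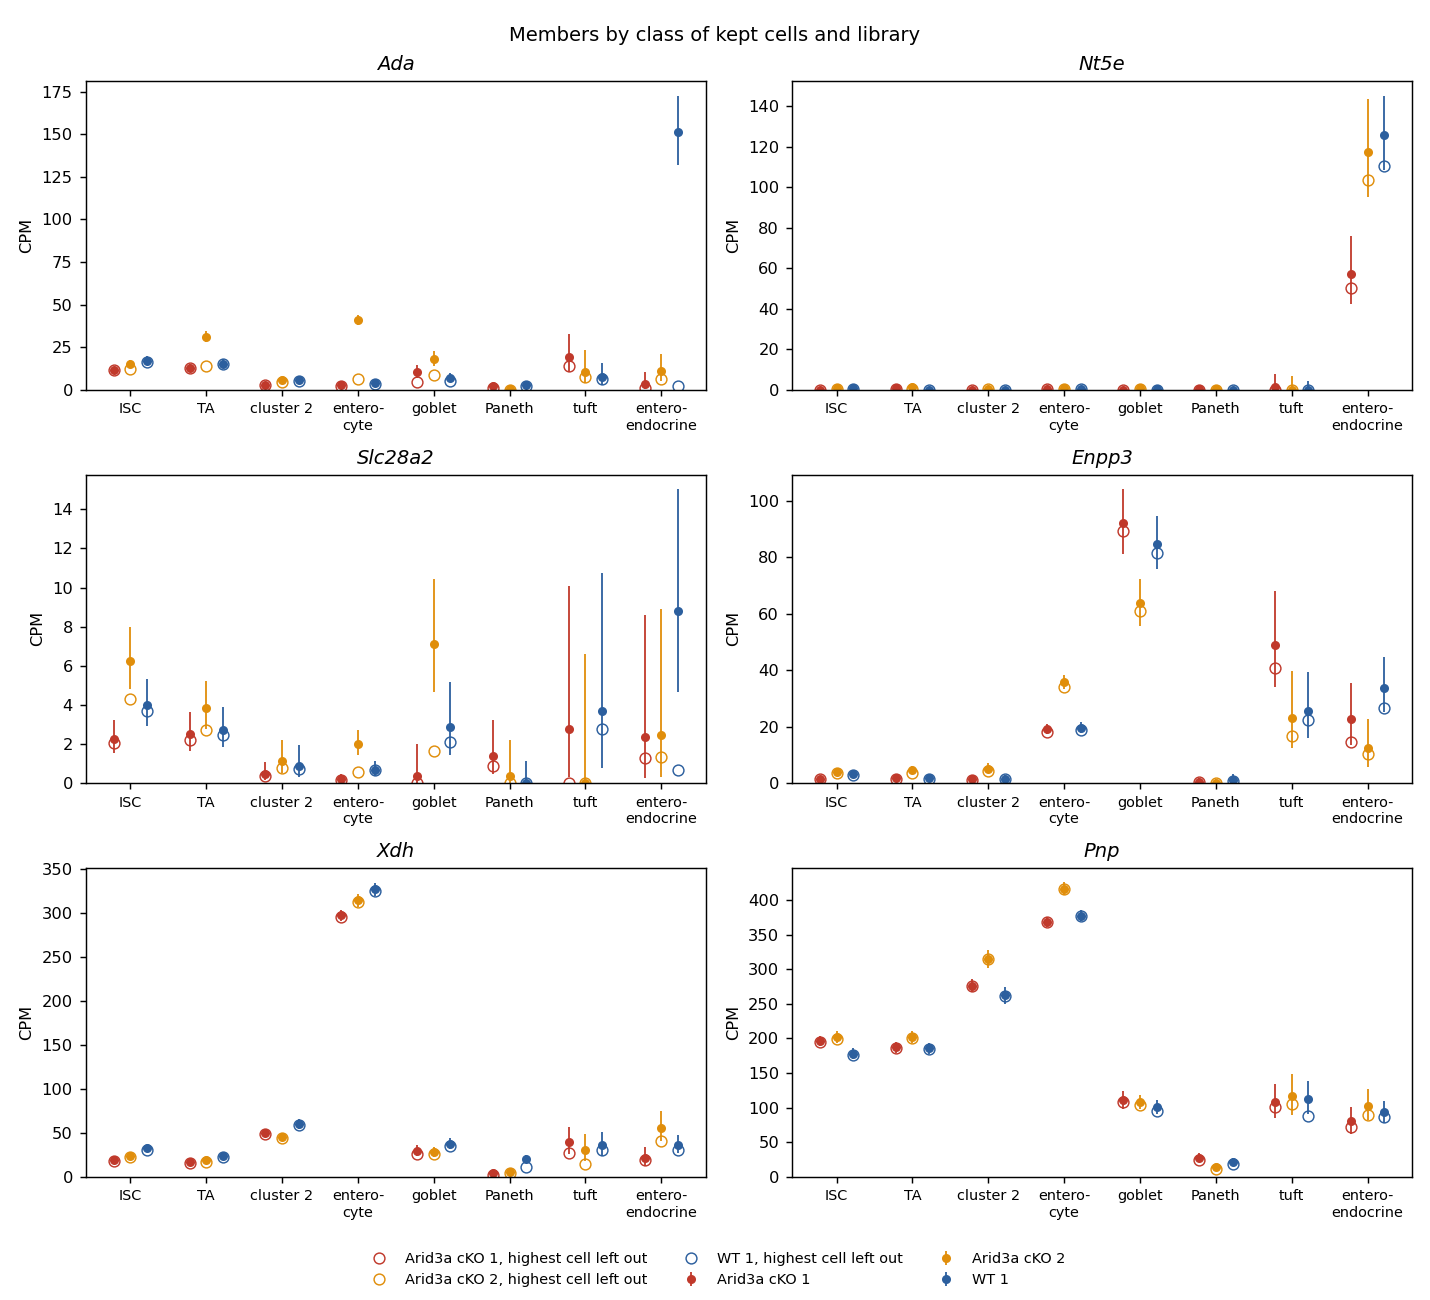
Level of each member in CPM (linear axis from 0) in each class of kept cells, with 1 filled symbol per library and bars for exact 95% Poisson intervals that cover counting error only. Open symbols give the level without the highest cell of each library in that class. Xdh and Pnp peak in enterocyte-like cells in all 3 libraries, Enpp3 in goblet-like cells and Nt5e in enteroendocrine-like cells, whereas the high Ada values, such as 41.0 CPM in enterocyte-like cells of Arid3a cKO 2, lie in 1 library each.

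To place the members between crypt and villus, ISC-, TA- and enterocyte-like cells were ordered by their distance from the ISC-like cells on a neighbour graph and divided into 5 bins of equal cell number. Bin 1 held 773 ISC-like and 8 TA-like cells, and bin 5 held 780 enterocyte-like cells and 1 TA-like cell. Xdh went from 14.5, 16.5 and 26.7 CPM in bin 1 to 451, 436 and 429 CPM in bin 5. The WT library was the highest at the ISC end. In bin 5 the intervals of the libraries overlapped, at 437 to 465, 421 to 452 and 414 to 444 CPM. Enpp3 was low until bin 4, at 4.29, 7.32 and 3.63 CPM, and had 52.5, 95 and 52.1 CPM in bin 5. Pnp went from 194, 200.2 and 179 CPM to 376, 434 and 388 CPM. Enpp3 was thus raised only in the last bin in all 3 libraries, whereas Xdh was raised by degrees, with 104, 121 and 145 CPM in bin 3 and 284, 299 and 336 CPM in bin 4.

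Ada ran the other way in 2 libraries, from 11.7 to 3.09 CPM in Arid3a cKO 1 and from 19.4 to 5.71 CPM in WT, with the lowest values in bin 4. In Arid3a cKO 2 it had 16.5 CPM in bin 1 and 113 CPM in bin 5, the bin of the cell with 718 UMIs. The CPM-weighted mean bin of Ada was 2.26, 4.04 and 2.24, and became 2.24, 2.43 and 2.16 without the cells with at least 10 Ada UMIs. That limit, here and below, was chosen after the values had been seen. The mean bin of Slc28a2 was 2.18, 2.68 and 2.09, and 2.18, 1.97 and 2.09 without those cells. The corresponding value was 4.70, 4.64 and 4.56 for Enpp3, 4.30, 4.24 and 4.15 for Xdh and 3.37, 3.43 and 3.42 for Pnp. For comparison, Apoa4, an apolipoprotein that is high at the villus tip, had a mean bin of 4.49, 4.41 and 4.31. Among the kept cells, Enpp3 and Xdh thus lay toward the enterocyte end, whereas Ada and Slc28a2 lay toward the ISC end and Nt5e, with 17, 45 and 17 UMIs in the ordered cells, could not be placed.

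**Figure D2:**
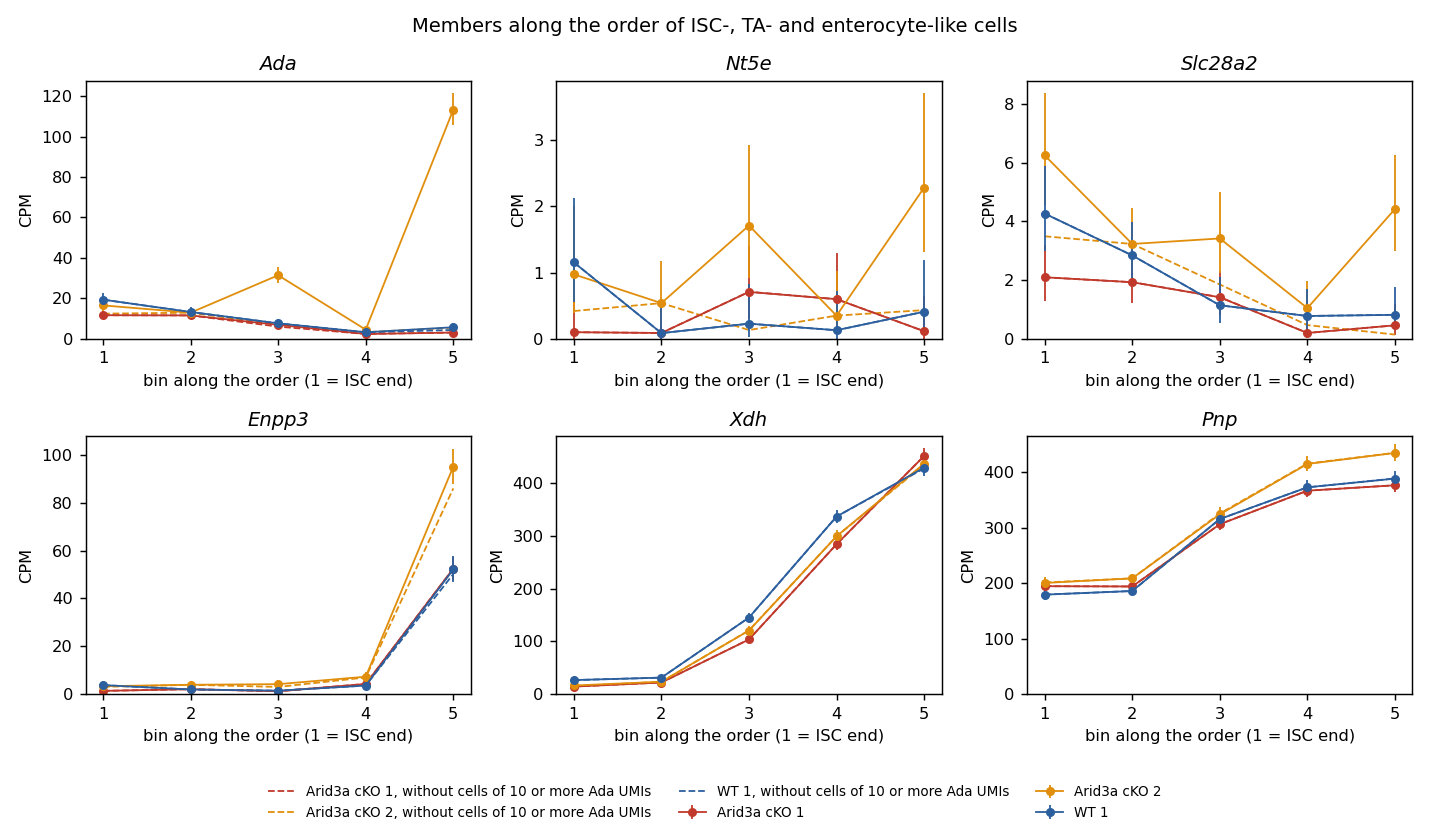
Level of each member in CPM (linear axis from 0) in 5 bins of equal cell number along the order of ISC-, TA- and enterocyte-like cells, from the ISC end in bin 1 to bin 5, with 1 line per library, exact 95% Poisson bars and lines without the cells with at least 10 Ada UMIs. Enpp3 stays at or below 7.32 CPM until bin 4 and Xdh climbs from bin 2, whereas the Ada value of 113 CPM in bin 5 of Arid3a cKO 2 is gone once those cells are left out.

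Across the 34 sums of 1 cluster in 1 library with at least 20 cells, the members fell apart in the same way. The points share libraries and depth, so the correlations of log2(CPM + 5) are a description. The pair most alike was Ada and Slc28a2 (Pearson r = 0.74), followed by Xdh and Pnp (r = 0.59) and Enpp3 and Xdh (r = 0.40). Among 5413 genes, Xdh was most like Gda (r = 0.98), the guanine deaminase, followed by Ggt1 and Btnl2. Nt5e was most like Adgrg4 (r = 0.99), Scn3a and Afp. Pnp was most like Slc25a3 (r = 0.99), the mitochondrial phosphate carrier, then Slc25a5 and Tspan3, and Enpp3 was most like Samhd1 (r = 0.85), a nucleotide triphosphohydrolase, then Oasl1 and Mxd1. Ada and Slc28a2 had no close match, with r of 0.55 and 0.63 for their best, Ccnd3 and Nfyb, followed by R3hdm1 and Pan3 for Ada and by Utp14b and Ccnd3 for Slc28a2.

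Cells very rich in Ada were rare in every library. Among kept cells, 2, 8 and 2 had at least 10 Ada UMIs. In Arid3a cKO 2 the first was an enterocyte-like cell with 718 Ada UMIs of 46024 UMIs, which also held 30 UMIs of Slc28a2, 31 of Enpp3, 27 of Pnp, 19 of Xdh and 13 of Nt5e. The next was a TA-like cell with 186 Ada UMIs, 12 of Nt5e, 12 of Slc28a2 and 9 of Enpp3. This TA-like cell also held 296 UMIs of Apoa4, 28 of Clca4a, 33 of Mki67 and 5 of Fabp1. In WT, an enteroendocrine-like cell held 221 Ada UMIs, 24 of Nt5e, 12 of Slc28a2 and 11 of Enpp3. It also held 347 UMIs of Apoa4 and 147 of Chga, a granule protein of endocrine cells. None of the 12 cells was among the 5% of each library with the highest doublet scores. Those scores were computed from kept cells alone, whereas most barcodes with at least 10 Ada UMIs were not kept. Whether a kept cell was joined with RNA of such a barcode was therefore not tested. The 3 cells with the most Ada thus each held UMIs of Slc28a2, Nt5e and Enpp3 as well. Of the others, only an ISC-like cell of Arid3a cKO 2 with 30 Ada UMIs held Nt5e, with 4 UMIs. Several held no Slc28a2, and the 2 cells of Arid3a cKO 1 held no Nt5e or Enpp3.

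Most Ada UMIs lay outside the kept cells. Barcodes beyond the limits on genes and mitochondrial UMIs held 80.6%, 78.2% and 85.3% of all Ada UMIs, but 33%, 38.5% and 51.5% of all UMIs. The share was 82.4%, 85.6% and 86.8% for Slc28a2, 71.3%, 77.6% and 76.2% for Enpp3, and 66.8%, 75% and 70.1% for Nt5e. For Xdh it was 55.6%, 66% and 68%, whereas for Pnp it was 11.5%, 14.0% and 22.3%. Of the 6 members, Pnp alone thus had most of its UMIs in the kept cells, in all libraries.

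Of all barcodes, 35 of 6845 in Arid3a cKO 1 (0.511%, 0.356 to 0.710), 99 of 6893 in Arid3a cKO 2 (1.44%, 1.17 to 1.75) and 56 of 11816 in WT (0.474%, 0.358 to 0.615) had at least 10 Ada UMIs. Arid3a cKO 2 stood above the other libraries, which overlapped. Of these barcodes 33, 91 and 54 were not kept. Their median depth of 8046, 6965 and 8786.5 UMIs was little above that of the other barcodes not kept, at 7382, 6597.5 and 7059.5. Their median mitochondrial share was 45.4%, 37.1% and 41.0%, against 47.0%, 51.1% and 54.0%, lower than that of the rest in each library.

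**Figure D3:**
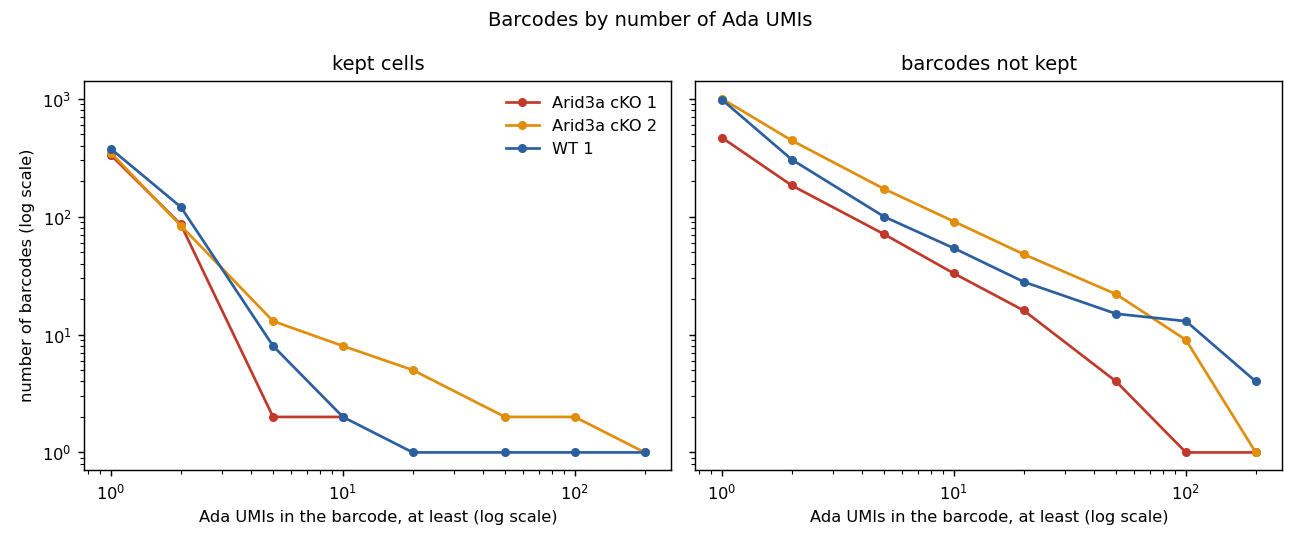
Number of barcodes (log axis) with at least a given number of Ada UMIs (log axis), for kept cells and for barcodes not kept, with 1 line per library. At 10 UMIs the kept cells number 2, 8 and 2 and the barcodes not kept 33, 91 and 54, in Arid3a cKO 1, Arid3a cKO 2 and WT.

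The barcodes rich in Ada were also rich in Slc28a2, Nt5e and Enpp3. Levels are given as UMIs in each 1000000 that were not mitochondrial, in barcodes not kept with at least 10 Ada UMIs against the other barcodes not kept. Slc28a2 had 1255 against 11.4 in Arid3a cKO 1, 1743 against 25.4 in Arid3a cKO 2 and 1589.7 against 11.3 in WT. A UMI of Slc28a2 was found in 66.7%, 74.7% and 79.6% of the barcodes rich in Ada, and in 2.29%, 4.72% and 2.28% of the others. Nt5e had 533 against 3.56, 826 against 7.30 and 1095 against 4.86, and was seen in 42.4%, 44.0% and 55.6% against 0.898%, 1.71% and 1.03%. Among kept cells Nt5e lay mainly in enteroendocrine-like cells. The class of these barcodes not kept was not determined here, so whether they are of another class was not tested. Enpp3 had 1844 against 113, 1461 against 197 and 1721 against 86.8, and was seen in 97.0%, 94.5% and 94.4% of the barcodes rich in Ada. The barcodes were chosen by Ada, and the direction for Slc28a2, Nt5e and Enpp3 was the same in all libraries.

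Xdh and Pnp did not follow. Xdh had 645 against 669, 1007 against 826 and 609.7 against 641, and Pnp had 154 against 137, 106 against 145 and 204 against 146. Both ratios lay close to 1 and on either side of it between libraries. Of the 10 other genes of the villus tip, 7 were above 1 in this ratio in all libraries and 3, Aspa, Fos and Junb, were below 1 in all. The share of all genes above 1 was not computed, so these counts have no background to be read against. Clca4a, a secreted protein of the chloride channel regulator family, had 2580.3 against 16.7, 1602 against 24.3 and 3007 against 15.6. Apoa4 had 20664 against 4050, 16269 against 5023 and 21963 against 3235, and Krt20, a keratin of mature epithelium, had 2714 against 506, 2332 against 688 and 1820 against 619. Aspa, the aspartoacylase, went the other way at 21 against 125, 27.7 against 144 and 63.8 against 152. The ratio was 0.77, 0.79 and 0.62 for Fos and 0.37, 0.89 and 0.57 for Junb, both immediate early genes, and 2.37, 1.03 and 1.97 for Clca4b. Outside the list, lower levels were found for Fabp1, the liver-type fatty acid binding protein, with ratios of 0.36, 0.23 and 0.42. Of the UMIs in barcodes not kept, those rich in Ada held 47.7%, 60.3% and 60.2% for Slc28a2, 55.5%, 71.5% and 70.7% for Nt5e and 56.3%, 59.3% and 67.4% for Clca4a, but 12%, 14.1% and 17.5% for Enpp3. The first 3 genes were therefore concentrated in few barcodes in every library, and Enpp3 was also spread over others.

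**Figure D4:**
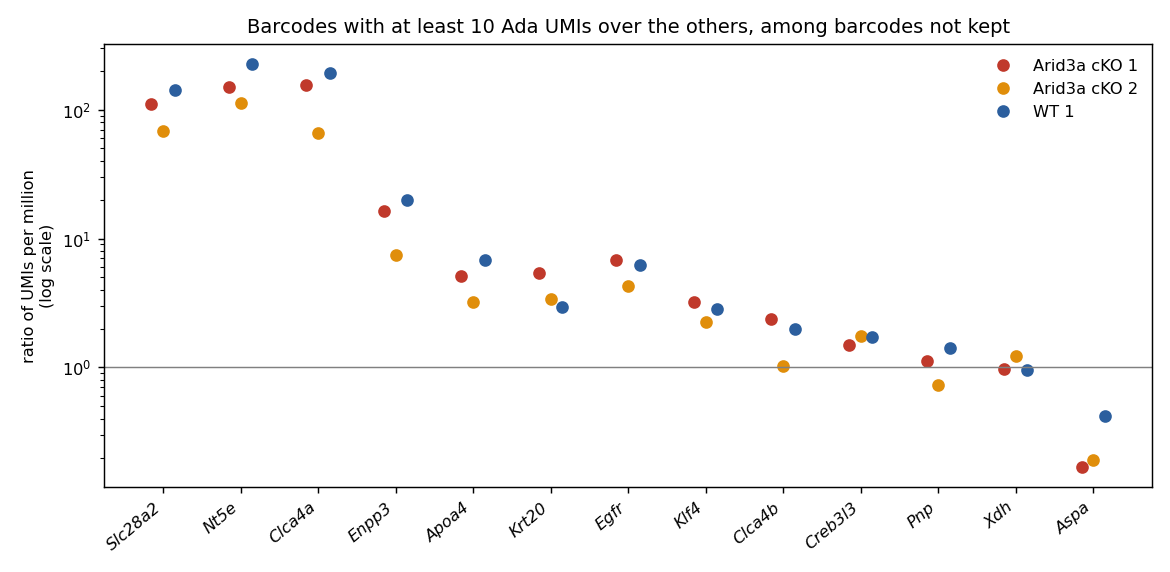
Ratio (log axis) of the level (share of non-mitochondrial UMIs) in barcodes with at least 10 Ada UMIs to that in the other barcodes, among barcodes not kept, with 1 symbol per library for each gene. Slc28a2, Nt5e and Clca4a lie between 65.9 and 225, Enpp3 between 7.42 and 19.8, Xdh and Pnp near 1, and Aspa below 1, in all 3 libraries. Fos and Junb of the villus tip list, below 1 in all 3 libraries, and Fabp1 are not plotted.

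Grouped by their mitochondrial share, all barcodes gave 2 patterns. In each 1000000 UMIs that were not mitochondrial, Ada had 8.28, 7.91 and 10.5 in barcodes with up to 5% mitochondrial UMIs and 233, 427 and 259 in those with over 50%. Slc28a2 went from 1.45, 1.63 and 2.08 to 52.7, 129.5 and 55.0, and Enpp3 from 9.39, 15 and 12.6 to 166, 289 and 154. Xdh differed less, from 86.7, 93.0 and 87.2 to 629, 786 and 625. It was highest between 25% and 50%, at 766, 897 and 671. Nt5e went from 1.36, 2.22 and 5.51 to 18.4, 34.1 and 21.6, with lower values between 5% and 15% in Arid3a cKO 1 (0.440) and WT (1.78). Pnp went the other way, from 257, 283 and 224 to 77.1, 62.4 and 83.5. The level measured for the 6 members thus differed with the mitochondrial share of the barcodes counted, and the part of RNA quality in it was not tested.

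**Figure D5:**
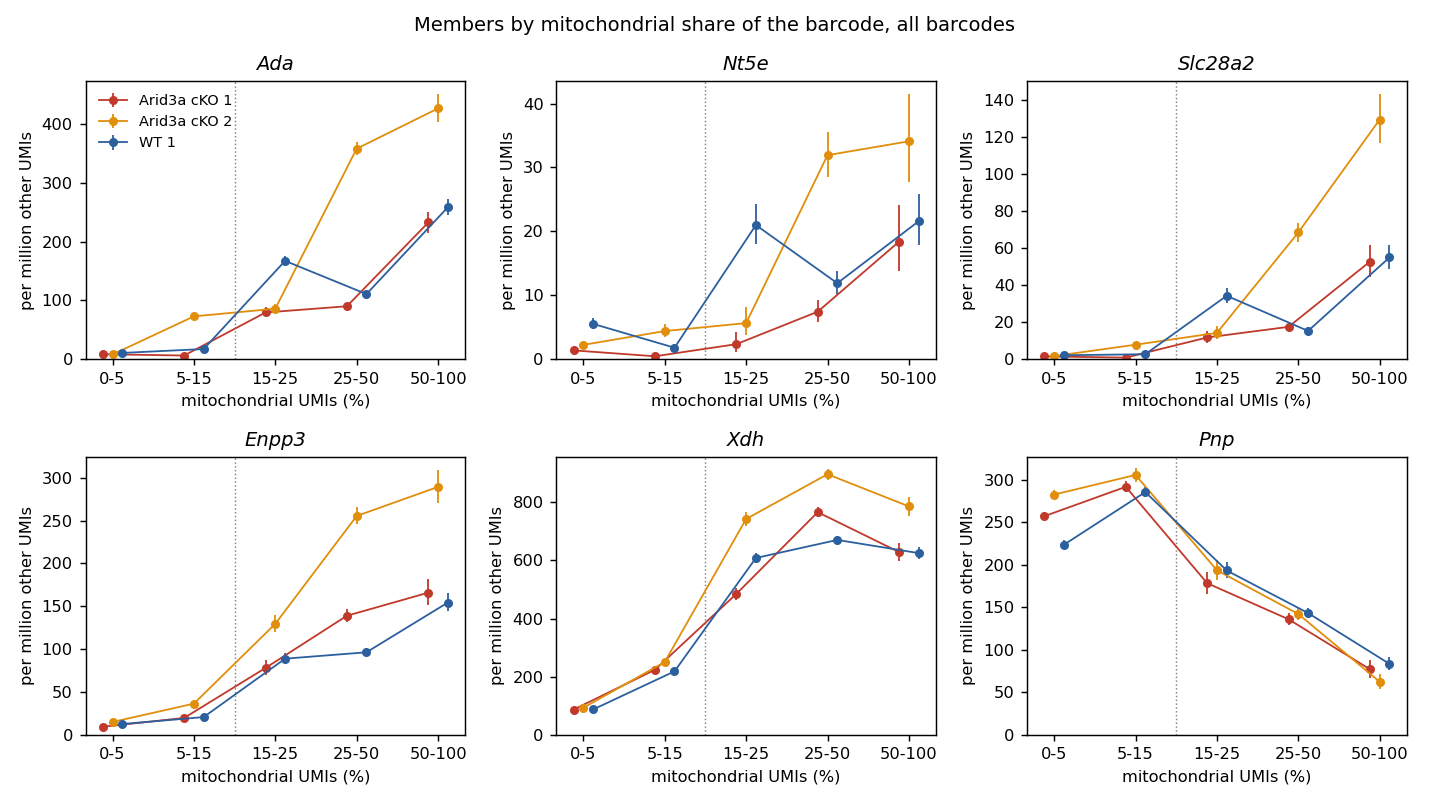
Level of each member in UMIs for each 1000000 non-mitochondrial UMIs (linear axis from 0) in all barcodes grouped by mitochondrial share, in percent of UMIs, with 1 line per library and exact 95% Poisson bars, and a dotted line at the limit of 15% for kept cells. Ada, Slc28a2 and Enpp3 are highest above 50% and Pnp is lowest there, in all 3 libraries.

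To ask whether loss of Arid3a changed the members, each cKO library was compared with WT. Log2 ratios are of CPM + 5, a scale on which changes of genes around 5 CPM or less look smaller than they are, and with 1 WT library the difference has no replicate check. A gene with a mean of at least 20 CPM counted as past the fold when it differed at least 2-fold in the same direction in both cKO libraries. In enterocyte-like cells this held for 17 of 4724 genes (0.36%), 5 higher (0.106%) and 12 lower (0.254%), and for 0 of the 3 members that reached 20 CPM, Enpp3, Xdh and Pnp. The log2 ratio was -0.03 in Arid3a cKO 1 and 0.73 in Arid3a cKO 2 for Enpp3, -0.14 and -0.06 for Xdh, and -0.04 and 0.14 for Pnp. For the scarcer members it was -0.02 and 0.18 for Nt5e and -0.13 and 0.30 for Slc28a2.

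Ada had the widest gap between the cKO libraries in enterocyte-like cells, with log2 ratios of -0.21 and 2.35. Without the highest cell of each library they were -0.20 and 0.40, and without the cells with at least 10 Ada UMIs -0.20 and 0.05. The higher level of Ada in Arid3a cKO 2 was thus within the range of the other members once 1 cell was left out. Over all kept cells 19 of 5336 genes (0.356%) were past the fold, and neither of the 2 members tested, Xdh (-0.12 and -0.07) and Pnp (0.09 and 0.20), was among them. There, Nt5e (-0.48 and -0.12) was lower in both cKO libraries. Enteroendocrine-like cells, which held most of its UMIs, made up 2.11%, 2.77% and 4.50% of kept cells, and summed T cell markers (8 of 8 genes with a UMI in each library) were at 1.37, 12.6 and 18.8 CPM over all kept cells. The part of either in this difference was not tested. Ada (-0.59 and 0.82), Slc28a2 (-0.19 and 0.25) and Enpp3 (-0.22 and 0.32) lay on both sides of WT.

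Xdh was also below WT in both cKO libraries in ISC-like cells (-0.64 and -0.38) and TA-like cells (-0.38 and -0.27), in which 0.185% and 0.174% of genes were past the fold. Xdh was not past it in ISC-like cells, and with a mean under 20 CPM it was not eligible in TA-like cells. Nt5e in enteroendocrine-like cells had log2 ratios of -1.07 and -0.10. In this class 59 of 6519 genes (0.905%) were past the fold. Of the 5 members tested there, Ada was past it in the lower direction (10 genes, 0.153%), which rested on the 1 WT cell with 221 of 224 Ada UMIs. The levels were 3.58, 11.1 and 151 CPM with all cells and 1.21, 6.25 and 2.05 CPM without the highest cell of each library.

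The other genes of the pathway were examined in enterocyte-like cells. Of 14 genes of purine breakdown and salvage inside the cell, 8 reached 20 CPM, and 0 were past the fold. The list's median log2 ratio was 0.01, beside -0.01 over all 4724 genes. Aprt, which salvages adenine, had 838, 812 and 767 CPM, and Gda had 674, 750.0 and 853 CPM, below WT in both cKO libraries (-0.34 and -0.18). Xdh, which acts on the product of Gda, was also below WT in both. Of 8 genes of nucleotide breakdown outside the cell, 3 reached 20 CPM, 0 were past the fold and the median was 0.02. Entpd5, a nucleoside diphosphatase, had 126, 142 and 132 CPM, and Entpd8, which hydrolyses nucleotides at the cell surface, had 47.1, 55.2 and 56.7 CPM.

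Of 10 transporters of nucleosides, bases and urate, 3 reached 20 CPM, 0 were past the fold and the median was 0.14. Abcg2, which exports urate, had 212, 224 and 198 CPM, and Slc28a1, the pyrimidine-preferring relative of Slc28a2, had 83.1, 61.8 and 63.7 CPM. Enterocyte-like cells in all libraries thus had far more Slc28a1 than Slc28a2 UMIs, on a scale that does not correct for length. Of 8 adenosine and nucleotide receptors, 0 reached 20 CPM as a mean. P2ry1 had 21.1, 19.8 and 18.3 CPM and P2rx4, an ATP-gated channel, had 20.2, 17.7 and 19.3 CPM. Purine synthesis was low, with 1 of 12 genes at 20 CPM. Adss had 81.1, 78.0 and 71.4 CPM and Gmps had 21.3, 17.5 and 15 CPM.

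Of 12 genes of pyrimidine synthesis, salvage and breakdown, 3 reached 20 CPM, 0 were past the fold and the median was -0.08. Cda, the cytidine deaminase, had 1018, 954 and 819 CPM, above WT in both cKO libraries (0.31 and 0.22). Upp1, the uridine phosphorylase, had 151, 172 and 171 CPM. Of 10 other genes of the villus tip, 8 reached 20 CPM, 0 were past the fold and the median was 0.00. Apoa4 had 4585, 5238 and 4315 CPM, and Fos, an immediate early transcription factor, had 896, 892 and 863 CPM.

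Genes that mark the proximal or the distal small intestine were measured because the region sampled could differ between mice. Of 7 proximal genes 6 reached 20 CPM, 5 of them were above WT in both cKO libraries and 1 was past the fold, with a median log2 ratio of 0.63. S100g, a calcium-binding protein of the duodenum, had 2270.2, 3210 and 1232 CPM. Akp3, the duodenal alkaline phosphatase, had 69.8, 107 and 27.7 CPM (1.19 and 1.77), and Pdx1, a transcription factor of the duodenum, had 36.1, 35.2 and 19.5 CPM (0.74 and 0.72). Onecut2 had 172, 178 and 169 CPM. The 3 distal genes, among them Fabp6 and Slc10a2, summed to 0.676, 1.06 and 1.22 CPM. Arid3a cKO 2, which had the most Enpp3 in enterocyte-like cells, also had the highest summed level of proximal genes, at 3683 CPM against 2693 in Arid3a cKO 1 and 1572 in WT, and the part of region in the members' values was not tested.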

How the data were processed

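The authors counted reads with Cell Ranger 5.0.0, as named in the submitters' processing notes, and each deposited matrix gives unnormalized UMI counts by gene and cell barcode. The mouse genome build is not given in the sources used here, so coordinates were matched by gene ID to GENCODE M21. CPM are the UMIs of a gene in each 1000000. Kept cells had at least 1000 genes and at most 15% mitochondrial UMIs, the study's limits. Seurat 5.3.0 under R 4.3.3 joined the libraries by canonical correlation (3000 features, 2000 for principal components, 30 components, resolution 0.3) without the 86 genes to be reported, and clusters were named from marker lists. Scrublet (scanpy 1.11.5) marked 110 cells (1.97%), which were kept. The enteroendocrine-like subclusters came from resolution 0.8.

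CPM were computed per library over the summed counts of a class. The 6 members were named in full, and from each of 9 gene lists the 2 highest genes in enterocyte-like cells and any with a log2 ratio of at least 0.5 in size in both cKO libraries, plus the 3 genes most like each member and adjacent paralogs. Members and lists were chosen with earlier results of these data known. The design names 2 replicates for each condition and 1 WT library was analysed here, so no test across animals was made, and nothing in the labels says which samples came from separate animals. Barcodes not kept were used only where stated. The scripts were tested on simulated data. Alternatives covered the pseudocount, filters, normalization by the trimmed mean of M values (edgeR 4.0.16), cluster resolution, doublets and each cKO library left out.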

Additional observations from a re-analysis of the deposited data

Results flagged for a closer look

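Outside the kept cells, 8 values of a cKO library had a 95% counting interval wholly above that of WT. The comparison of kept cells did not use these data. Only the members were compared in this way, and the intervals cover counting error only. How many of all genes would also lie above WT was not computed. The count of 8 therefore has no background to be read against and is not a result about the members. Over the barcodes not kept, Ada had 147 CPM in Arid3a cKO 2 against 68.0 (66.0 to 70.0) in WT, and Slc28a2 had 31.5 CPM against 12.4 (11.6 to 13.3). Nt5e had 12.6 CPM in Arid3a cKO 2 against 7.29 (6.65 to 7.97). In Arid3a cKO 1 these 3 genes were below WT, at 55.3, 10.7 and 3.92 CPM, so the higher levels were seen in 1 of 2 cKO libraries.

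Enpp3 had 62.8 CPM in Arid3a cKO 1 and 113 in Arid3a cKO 2 against 46.2 (44.6 to 47.9) in WT. Xdh had 330.2 and 417 CPM against 284 (280.1 to 288). For Enpp3 and Xdh both cKO libraries were higher, whereas Xdh in kept cells had been lower in both. Pnp had 72.3 CPM in Arid3a cKO 2 against 64.9 (62.9 to 66.8), with 67.8 in Arid3a cKO 1. These CPM include mitochondrial UMIs. In each 1000000 UMIs that were not mitochondrial, Pnp had 144 (138 to 149) in Arid3a cKO 2 against 146 (142 to 151) in WT, so the direction turned, and Xdh had 669 (657 to 682) in Arid3a cKO 1 against 640.2 (631 to 649), a smaller gap. On that scale Ada in Arid3a cKO 2 had 293 against 153, Slc28a2 62.6 against 28.0, Nt5e 25 against 16.4 and Xdh 830.0 against 640.2. Enpp3 had 127 and 224 in the cKO libraries against 104. None of these differences has a replicate check in WT.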

How the results depend on the processing

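No paired analysis was possible because a single replicate number occurs in both genotypes. With 1 WT library, all ratios lack a replicate check, and members below 5 CPM are limited by depth. Of 47 alternatives for the summary values, 41 stayed within a limit and 6 moved the value by more. The limit was the spread between the cKO libraries (standard deviation of their 2 values) or, for counts, a factor of 1.5. A reversal of direction was not scored. For single members, 164 of 180 stayed within that spread and 16 did not. Leaving out 1 cKO library moves a ratio, share or mean bin by less than that spread by construction. Those alternatives are counted among the 41 and the 164 but say nothing on stability. At a log2 ratio of at least 0.5, the genes past the fold numbered 75 instead of 17 in enterocyte-like cells and 57 instead of 19 over all kept cells. Without replicate 1 of Arid3a cKO the enterocyte-like count was 27, and leaving out either cKO library gave 22 to 27, or 23 to 28 over all kept cells. The median log2 ratio of the members in enterocyte-like cells was 0.08 (-0.08 and 0.24 with 1 cKO library left out) and 0.31 with a pseudocount of 1 CPM. Over all kept cells it was 0.01 (-0.21 and 0.23). The share of enterocyte-like cells with an Ada UMI, a mean of 6.64% over the cKO libraries (5.81% to 7.47%), was 9.82% unthinned. The median of the members' mean bins, averaged over the cKO libraries and leaving out WT, was 3.54 (3.35 to 3.73). This median includes Nt5e, which could not be placed. Without the cells with at least 10 Ada UMIs it was 3.26, an alternative chosen after seeing the data. Those without the highest cell, over all barcodes and with cluster 2 in the order were also chosen after seeing the data. The cause of the other moves was not tested.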
